A study of Mus musculus with 7 samples.

Results

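The genes described here are 7 regulators of blood stem and progenitor cells, Sox4, Egfl7, Angpt1, Lmo2, Pbx3, Lin28a and Fli1, which were followed through mouse bone marrow that carried different transgenes after transplantation. They were taken as the probe sets annotated to exactly 1 of these symbols, which gave 11 of the 16255 probe sets of the deposited values that are not manufacturer controls. Sox4 had 3 probe sets, Egfl7 and Fli1 had 2 each, and the other 4 genes had 1 each. All 7 genes had at least 1 probe set in the values.

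Bone marrow cells (BMCs) were taken from recipients of a bone marrow transplant (BMT) and hybridised to 7 Affymetrix Mouse430_2 arrays, which read each transcript with a set of short probes. The control group was 3 arrays of whole marrow from recipients of cells with a mock transgene. A second group was 2 arrays of whole marrow from recipients of cells with an ABCG2 transgene; ABCG2 is a membrane pump known for drug efflux from stem cells. The remaining 2 arrays held marrow with the EZH2-Mt transgene from 1 or more MDS-like recipients, sorted on GFP into a GFP-negative and a GFP-positive fraction with 1 array each. GFP is green fluorescent protein, MDS is taken as myelodysplastic syndrome, and EZH2 is the Polycomb enzyme that methylates histone H3. All groups shared transplantation, and only the EZH2-Mt cells were sorted and came from recipients called MDS-like. The sort, the EZH2-Mt transgene and the MDS-like state therefore cannot be told apart in a comparison with mock marrow. The labels do not give the vector, the promoter, the strain, the age or the number of mice behind an array, nor what the "Mt" form of EZH2 is. Both sorted fractions are called controls in their descriptions. Only the ABCG2 titles hold the tag ser2, which the labels leave unexplained. Should ser2 stand for a separate run, its effect and that of the transgene cannot be told apart.

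The probe set of mouse Abcg2 read 0.024, -0.17 and 0 on the mock arrays and -0.92 and -0.91 on the arrays labelled ABCG2, a fall of 0.86 ± 0.14 (limma, adjusted p = 0.00276). In the GFP-negative and GFP-positive EZH2-Mt fractions Abcg2 read 0.84 and 1.35, above all mock arrays. The labels do not say whether the transgene was the mouse or the human sequence, or which part of it the vector held, so this probe set does not check the label. Ezh2 lay at -0.14 and -0.16 in the GFP-negative and GFP-positive fractions, within the mock range of -0.22 to 0.14. On the ABCG2 arrays Ezh2 read 0.35 and 0.68, higher than mock by 0.54 ± 0.18 (limma, adjusted p = 0.0405). The same limit holds for this probe set. The SD over all probe sets was 0.33 to 0.42 on mock arrays, 1.06 and 1.13 on ABCG2 arrays, 0.41 on the GFP-negative and 0.54 on the GFP-positive array.

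Blood stem cells are kept in an immature state by transcription factors that work in shared complexes, and by signals from the marrow niche. Lmo2 is a LIM-domain protein without DNA contact of its own, which bridges Tal1 or Lyl1 to Gata factors and Ldb1, and it is a known T cell leukaemia gene. Fli1 is an Ets factor of stem cells, megakaryocytes and vessels, Pbx3 is a TALE homeodomain partner of Hox and Meis proteins, and Sox4 is an HMG-box factor needed by early B cells. Angpt1 is the activating ligand of the receptor Tie2, Egfl7 is a secreted protein of vessels and of blood progenitors, and Lin28a is an RNA-binding protein known from embryonic cells that blocks the maturation of let-7 microRNAs.

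Promoter sequence is shown for members that moved in opposite directions between ABCG2 and mock marrow. RefSeq promoter windows (build GRCm38.p6) were matched for 3 of the 7 genes, Sox4, Egfl7 and Lin28a, and the 250 bases before the start were read from each. Sox4 (chr13:28953700-28953949, minus strand) and the first of 3 Egfl7 windows (chr2:26580833-26581082, plus strand) belong to genes that were higher on ABCG2 arrays. The Lin28a window (chr4:134018817-134019066, minus strand) belongs to a gene that was lower. Capitals mark the E-box letters CANNTG, which bHLH factors such as Tal1 and Tcf3 are known to bind.
Sox4: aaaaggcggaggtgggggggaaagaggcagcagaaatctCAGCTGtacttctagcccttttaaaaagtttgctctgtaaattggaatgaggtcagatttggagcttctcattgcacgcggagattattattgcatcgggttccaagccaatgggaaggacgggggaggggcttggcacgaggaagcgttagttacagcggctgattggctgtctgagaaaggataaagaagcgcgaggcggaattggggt
Egfl7: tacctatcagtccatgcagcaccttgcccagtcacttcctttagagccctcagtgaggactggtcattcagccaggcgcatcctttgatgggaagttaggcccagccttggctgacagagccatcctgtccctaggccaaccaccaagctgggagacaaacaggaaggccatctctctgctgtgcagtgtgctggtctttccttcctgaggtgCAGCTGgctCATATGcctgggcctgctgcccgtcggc
Lin28a: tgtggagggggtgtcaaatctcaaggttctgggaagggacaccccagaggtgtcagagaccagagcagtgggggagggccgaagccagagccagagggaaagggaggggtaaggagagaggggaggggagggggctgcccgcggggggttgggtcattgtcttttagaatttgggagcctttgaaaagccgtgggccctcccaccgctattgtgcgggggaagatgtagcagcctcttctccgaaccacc

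Both strands were searched for 6 motifs of factors named here. The E-box was in 3 of the 5 windows of these genes, against 66.2% of 32851 RefSeq windows of the same length. The Sox4 match began 211 bases before the start, and those in the first Egfl7 window began 37 and 28 bases before it. The other 5 motifs were in 0 of the 5 windows. The Ets letters CCGGAA stood in 12.0% of all windows. The Gata letters AGATAA stood in 9.99% of them and the Sox letters AACAAT in 9.42%. For Runx the letters TGTGGT stood in 14.0%, and for Pbx with Hox TGATTGAT stood in 0.67%. These are matches of letters and no measure of binding.

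Members of this group are also tied to 2 microRNA families that the arrays did not measure. The hairpin of miR-126a (chr2:26591357-26591429, plus strand, GRCm38.p6) lies inside the Egfl7 gene. The let-7 family is the target of Lin28a, and all 9 mature let-7 and miR-98 5′ arms in the RefSeq table share the seed GAGGUAG. Below, capitals mark the seed, bases 2 to 8.
miR-126a-3p: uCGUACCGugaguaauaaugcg
let-7a-5p: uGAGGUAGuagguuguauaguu

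In ABCG2 marrow, Sox4 and Egfl7 were higher than in mock marrow, while Angpt1, Lmo2, Pbx3, Lin28a and Fli1 were lower. The sizes ran from 14.9-fold lower, for Lin28a and Pbx3, to 11.2-fold higher, for 1 of the Egfl7 probe sets, with n = 2 against 3 arrays. All 11 probe sets passed limma's test at an adjusted p of 0.05, 5 of them higher and 6 lower. Over all 16255 probe sets 56.8% passed, 31.5% higher and 25.3% lower, so a call by itself says little about these genes. Their median absolute difference was 2.71 log2, against 0.64 over all probe sets, while the median signed difference was -0.49 against 0.11. The members were chosen with earlier results of these data known, so their large differences are no independent support. On 10 of the 11 probe sets both ABCG2 arrays lay apart from all 5 other arrays, which was true of 58.9% of all probe sets. They lay above the others on 5 and below on 5, against 31.3% and 27.5% of all probe sets. As means over the probe sets of a gene, 7 of the 7 genes passed, 2 higher and 5 lower, against 61.8%, 35.6% and 26.2% of all 8378 genes. In bulk marrow, fewer cells of a type and less RNA per cell cannot be told apart.

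All values are normalized signals on a log scale whose base is not stated and was taken as log2, on which every fold rests. They are centred on the median of the 7 arrays for each probe set, so that 0 is the middle array and levels of different genes cannot be compared. Values after ± are limma's standard errors, and each difference is the mean of the ABCG2 arrays less that of the mock arrays.

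**Figure D1:**
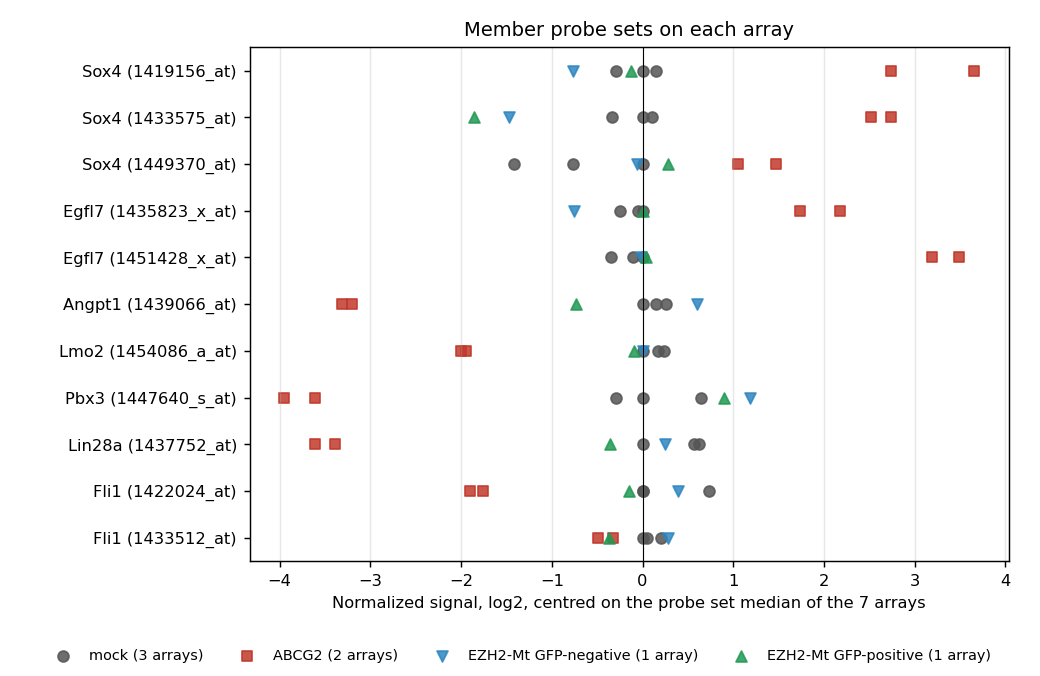
Normalized signal in log2 (horizontal axis), centred per probe set on the median of the 7 arrays, for the 11 probe sets, with 1 point per array and symbols by group. The ABCG2 squares lie right of all other arrays for Sox4 and Egfl7 and left of them for Angpt1, Lmo2, Pbx3, Lin28a and the first Fli1 probe set, while the second Fli1 probe set overlaps with the GFP-positive array.

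Sox4 read -0.29, 0 and 0.15 on the mock arrays and 2.74 and 3.66 on the ABCG2 arrays with probe set 1419156_at. It was higher by 3.24 ± 0.29 log2 (limma, adjusted p = 0.000262), a 9.48-fold change, with no overlap between the groups. The ABCG2 arrays were 0.92 apart here, more than on the other 10 probe sets.

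Probe set 1433575_at placed Sox4 at -0.34, 0 and 0.11 on mock arrays and at 2.52 and 2.74 on ABCG2 arrays. The difference was 2.71 ± 0.19 (limma, adjusted p = 0.000106). The third probe set, 1449370_at, had scattered mock values, -1.42, -0.76 and 0, and ABCG2 values of 1.06 and 1.47. Its difference of 1.99 ± 0.40 (limma, adjusted p = 0.00598) was the smallest of the Sox4 set, though the groups again did not overlap. The 3 probe sets therefore agreed in direction and spanned 1.26 log2 in size.

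Egfl7, the other gene that rose, was read by probe sets whose names carry the suffix x, which Affymetrix uses for probes that may cross-hybridise with other transcripts. With 1451428_x_at the mock arrays lay at -0.10, 0 and -0.35 and the ABCG2 arrays at 3.19 and 3.49. The difference of 3.49 ± 0.18 (limma, adjusted p = 4.3e-05) was the largest rise among the members. With 1435823_x_at the mock values were 0.0041, -0.052 and -0.25 and the ABCG2 values 1.74 and 2.18, a difference of 2.06 ± 0.19 (limma, adjusted p = 0.000269). Both probe sets separated the groups, and they differed from each other by 1.43 log2.

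Angpt1, the niche ligand, lay at 0, 0.26 and 0.15 on mock arrays and at -3.32 and -3.20 on ABCG2 arrays. It fell by 3.39 ± 0.15 (limma, adjusted p = 2.8e-05), 10.5-fold, and replicates in both groups were within 0.26 of each other. Its receptor gene Tek was on the partner list and had no value among the measured genes.

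Lmo2 had little scatter in either group. The mock arrays gave 0.0036, 0.17 and 0.23 and the ABCG2 arrays -1.95 and -2.00. Lmo2 fell by 2.11 ± 0.15 (limma, adjusted p = 0.000109), 4.32-fold, and the ABCG2 arrays were only 0.057 apart.

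Pbx3 was lower by 3.90 ± 0.29 (limma, adjusted p = 0.000140). Its mock values, 0.65, -0.30 and 0, spread over 0.94, and its ABCG2 values were -3.95 and -3.61. The single Pbx3 probe set has the suffix s, used for probes shared by several transcripts.

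Lin28a read 0, 0.63 and 0.57 on mock arrays against -3.61 and -3.39 on ABCG2 arrays. It was lower by 3.90 ± 0.23 (limma, adjusted p = 6.4e-05). Only 1.37% of all probe sets differed by more than Lin28a in absolute size, and 1.39% by more than Pbx3. The deposited probe sets had to be called Present or Marginal on every array. Because the values are centred, they do not tell how near to background Lin28a lay on ABCG2 arrays.

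Both Fli1 probe sets gave a fall, of sizes 1.59 log2 apart. With 1422024_at the mock arrays lay at 0.73, 0.0025 and 0 and the ABCG2 arrays at -1.91 and -1.76, a fall of 2.08 ± 0.25 (limma, adjusted p = 0.000860). With 1433512_at the mock values were 0.20, 0.047 and 0 and the ABCG2 values -0.32 and -0.49. That difference, -0.49 ± 0.15, passed limma's test (adjusted p = 0.0286), with a 95% interval from -0.85 to -0.13. It did not pass after quantile normalization (-0.42, adjusted p = 0.159), or when mock replicate 1, 2 or 3 or ABCG2 replicate 2 was left out (differences from -0.53 to -0.41, adjusted p from 0.0516 to 0.121). A larger absolute difference was seen in 60.3% of all probe sets, so the fall of Fli1 rests on 1422024_at.

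**Figure D2:**
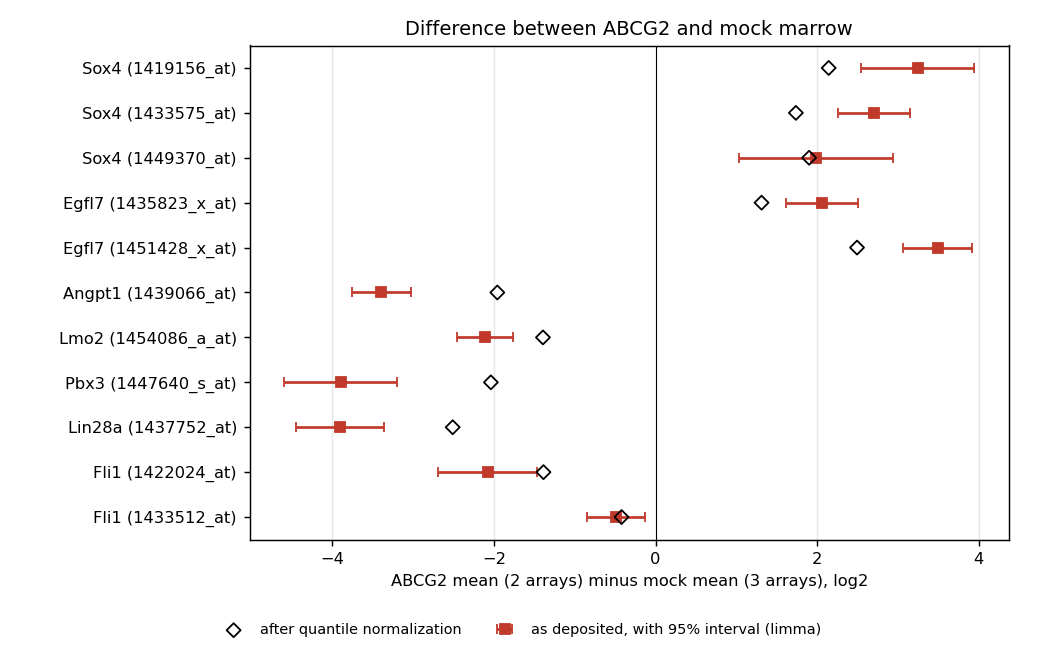
ABCG2 mean minus mock mean in log2 for each probe set, as deposited (squares, with limma's 95% interval) and after quantile normalization of the 7 arrays (open diamonds). Every diamond keeps the side of 0 of its square, and all 11 lie nearer to 0, as with Pbx3 at -3.90 and -2.04.

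The direction of all 11 differences was kept after quantile normalization, but all 11 became smaller. This method gives every array the same distribution of values. It was run on values already centred per probe set, so it evens out their spread between arrays. That spread was widest on ABCG2 arrays (SD 1.06 and 1.13, against 0.33 to 0.42 on mock arrays), so smaller ABCG2 differences are partly built in. Pbx3 went from -3.90 to -2.04 and Angpt1 from -3.39 to -1.96. Lin28a stood at -2.51, Lmo2 at -1.39, and Sox4 at 2.14 with 1419156_at and 1.74 with 1433575_at. Egfl7 with 1435823_x_at was at 1.31, and 10 of the 11 probe sets still passed limma's test.

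In the sorted EZH2-Mt fractions most of these probe sets lay within 2-fold of the mock mean, with Pbx3 and Sox4 as the exceptions, and Angpt1 differed between the fractions. Each fraction is 1 array, so its differences from the mock mean have no replicate check and no p-value. Of the 11 probe sets, 2 differed by 2-fold or more from the mock mean in the GFP-negative fraction, against 6.43% of all probe sets. They were Pbx3, 1 member higher (4.1% of all), and Sox4 with 1433575_at, 1 lower (2.34%). In the GFP-positive fraction 2 did so, against 12.2%. They were Sox4 with 1449370_at, 1 higher (7.97%), and again Sox4 with 1433575_at, 1 lower (4.2%), so 1 probe set was past 2-fold the same way in both fractions, against 3.94% of all. Quantile normalization of the centred values widens arrays of smaller spread than ABCG2, so larger differences after it are partly built in. After it, the counts at 2-fold or more were 5 in the GFP-negative and 4 in the GFP-positive fraction. Sox4 with 1433575_at then stood at -2.60 and -2.85 from the mock mean. The others that then reached 2-fold were Sox4 with 1419156_at (-1.35) and 1449370_at (1.03) and Egfl7 with 1435823_x_at (-1.17) beside Pbx3 (1.28) in GFP-negative cells, and Angpt1 (-1.26) and Lin28a (-1.20) beside Sox4 with 1449370_at (1.41) in GFP-positive cells. As deposited, values outside the range of the mock arrays were seen for 7 of 11 in the GFP-negative fraction, against 69.9% of all, and for 9 of 11 in the GFP-positive fraction, against 76.9%.

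Sox4 showed the largest departure, but its probe sets did not agree. With 1433575_at the GFP-negative array read -1.47 and the GFP-positive array -1.86, differences of -1.40 and -1.78 from the mock mean and below the mock range. With 1449370_at the values were -0.056 and 0.28, and the GFP-positive array stood 1.01 above the mock mean. That difference was 0.67, 0.99 or 1.37 without mock replicate 1, 2 or 3. With 1419156_at the GFP-negative array, at -0.77, was below the mock arrays and the GFP-positive array, at -0.13, was among them.

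Pbx3 was higher in both fractions, at 1.18 in GFP-negative and 0.90 in GFP-positive cells, above all mock arrays. Set against the mock mean these are differences of 1.07 and 0.78, beside -3.90 for ABCG2 against the same mock arrays. Without mock replicate 2 the GFP-negative difference was 0.86 and no longer reached 2-fold. Without mock replicate 1 the GFP-positive difference was 1.05 and did reach it.

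Angpt1 separated the fractions. It lay at 0.60 in GFP-negative cells, above the mock range, and at -0.73 in GFP-positive cells, below it. The GFP-positive minus GFP-negative difference of -1.33 was the one of the 11 that reached 2-fold as deposited, as did 5.13% of all probe sets. The GFP-positive array was the lower, as for 2.04% of all, and 0 members were 2-fold higher there, against 3.09%. After quantile normalization Angpt1 stood at -1.71, and Sox4 with 1419156_at (1.17) and Egfl7 with 1435823_x_at (1.30) were also past 2-fold, both higher in GFP-positive cells. With 1 array each this difference has no replicate check.

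Lin28a stood at 0.25 in GFP-negative cells, within the mock range, and at -0.36 in GFP-positive cells, below it. Lmo2 was at 0 and -0.094, both just below the lowest mock array. Egfl7 with 1451428_x_at was at -0.016 and 0.043, near mock, and with 1435823_x_at at -0.75 and 0.

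Fli1 read 0.39 and -0.15 with 1422024_at and 0.28 and -0.37 with 1433512_at, in GFP-negative and GFP-positive cells. On the latter probe set the GFP-positive array lay between the ABCG2 arrays, the only such overlap among the 11. Signals of Angpt1, Lin28a and both Fli1 probe sets were lower in the GFP-positive than in the GFP-negative array, with differences from -1.33 to -0.54.

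**Figure D3:**
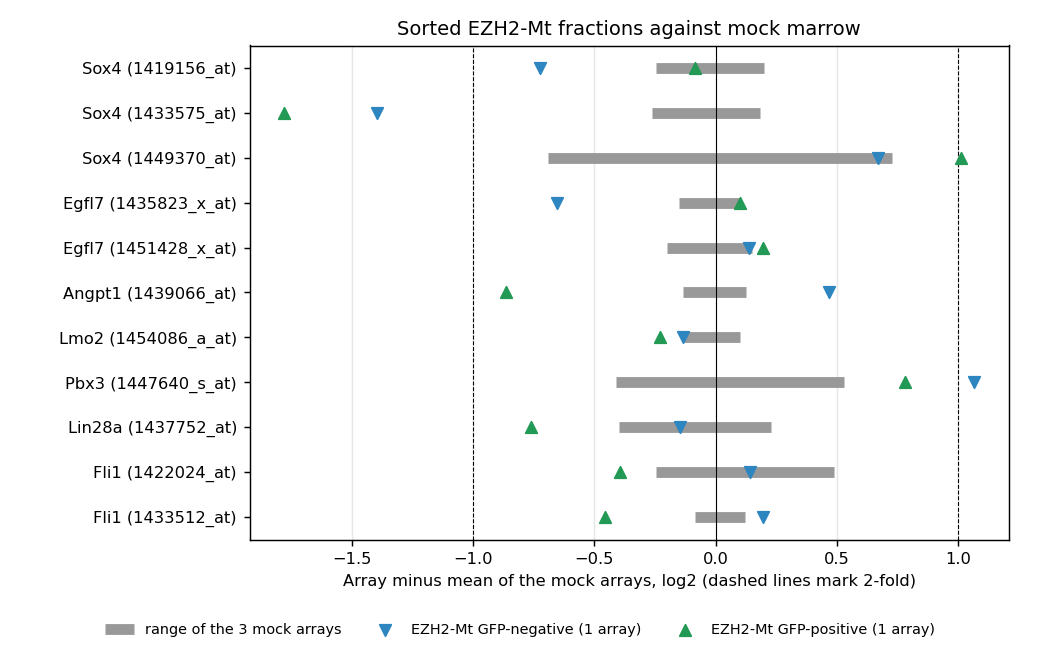
Value of each sorted EZH2-Mt array minus the mean of the 3 mock arrays in log2, with the range of the mock arrays as grey bars and 2-fold as dashed lines. Sox4 with 1433575_at lies left of the 2-fold line in both fractions, Pbx3 lies right of its mock range in both, and the fractions fall on opposite sides of the Angpt1 range.

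The manufacturer's control probe sets stood apart on the sorted arrays and, for some, on the ABCG2 arrays. The median of 12 hybridization control probe sets (bioC, bioD and cre, transcripts added in fixed amounts) was -0.033 to 0.060 on mock arrays. It was -0.21 and -0.33 on ABCG2 arrays, 0.91 on the GFP-negative array and 2.14 on the GFP-positive array. The bioB median was -0.032 to 0.0003 on mock arrays, -3.07 and -3.20 on ABCG2 arrays, and 0.99 and 2.47 on the GFP-negative and GFP-positive arrays. The median of the 24 poly-A control probe sets was 0 to 0.0039 on mock arrays, -1.04 and -1.49 on ABCG2 arrays, and 1.79 and 3.50 on the GFP-negative and GFP-positive arrays. Because each probe set is centred on its own median, 3′ minus 5′ differences show shifts between arrays and not the state of the RNA itself. The Gapdh 3′ minus 5′ difference, which grows as RNA is degraded, was -0.080 to 0.100 on mock and -0.078 and -0.11 on ABCG2 arrays. It was 0.091 on the GFP-negative and 0.35 on the GFP-positive array. For beta-actin it was -0.050 to 0.036 on mock, 0.40 and 0.42 on ABCG2, 0.14 on GFP-negative and 0.31 on GFP-positive arrays. Their part in the members' differences was not tested.

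Among themselves, the members formed a pair that rose and 5 genes that fell. By the root mean square difference over the 7 arrays, Sox4 and Egfl7 were 0.43 log2 apart and Angpt1 and Lin28a 0.32, the closest pairs of each direction, with probe sets averaged per gene. Lmo2 and Fli1 were 0.52 apart. Because the ABCG2 arrays lie far from the rest on most probe sets, the ABCG2 arrays weigh most in these distances.

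The same measure named the genes most alike to each member. For Sox4 these were Dnmt3a, a de novo DNA methyltransferase gene (0.17), and Dctd, of nucleotide metabolism (0.23), and for Egfl7 they were Gm13012 (0.18) and Tmem201 (0.18). L1cam, an adhesion molecule gene (0.28), and Cd55, which encodes a complement regulator (0.29), were nearest to Angpt1. Plod3 and Agps were nearest to Lmo2 (0.075 and 0.079), Naip6 and Vopp1 to Pbx3 (0.30 and 0.35), and Ogfrl1 and Rab38 to Lin28a (0.22 and 0.24). Fli1 was closest to Itgal, the alpha chain gene of a leukocyte integrin (0.12), and to Mospd1 (0.13).

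Genes that work with the members were compared next, as means over the probe sets of a gene. Of 114 partner genes, 57 had values, and 25 of these were higher and 16 lower in ABCG2 marrow, with a median difference of 0.28. Over all 8378 genes 35.6% were higher and 26.2% lower, and the median was 0.15. The partner lists were chosen with earlier results of these data known.

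On the list of LIM-only relatives of Lmo2 and genes of the complex it bridges, 11 of 15 genes were measured. Of these, 5 were higher and 3 lower. Ssbp3, which encodes a cofactor of Ldb1, rose (2.84 ± 0.17), and so did the E-protein genes Tcf3 (2.14 ± 0.17) and Tcf12 (1.86 ± 0.14), whose products pair with Tal1. Lmo4, a LIM-only relative of Lmo2, fell by 4.42 ± 0.16. Outside the rule for named genes, and with values seen, Ldb1 was higher by 1.86 ± 0.19 and Tal1 fell by 1.39 ± 0.26. Lmo1, another LIM-only relative, fell by 0.72 ± 0.20. Lyl1 (0.28) and Runx1 (0.16) did not pass limma's test. After quantile normalization 5 were higher and 1, Lmo4, was lower, and the Tal1 and Lmo1 calls were lost. The Lmo1 call was also lost without mock replicate 3 or ABCG2 replicate 1.

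Among other Ets factors, 12 of 13 were measured, 6 higher and 3 lower than in mock marrow. Ets2 fell by 6.26 ± 0.44 and Spi1, the master factor of myeloid cells, by 2.80 ± 0.12, while Spib rose by 4.84 ± 0.44 and Elk3 by 1.95 ± 0.16. Erg, the nearest relative of Fli1, rose by 1.94 ± 0.15 where Fli1 fell. Its mock values were 0, -0.10 and -0.31 and its ABCG2 values 1.77 and 1.84, with 0.45 in GFP-negative and -0.25 in GFP-positive cells. Erg was named here after its values were seen. After quantile normalization 4 of the Ets list were higher and 2 lower.

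Of the let-7 axis, 6 of 14 genes were measured, and 4 were higher and 2 lower. The microRNA processing genes Drosha (2.47 ± 0.15) and Dicer1 (1.13 ± 0.18) rose, and so did Tut4 (1.24 ± 0.32), a uridylyltransferase that works with Lin28a. Arid3a, a known let-7 target, fell by 1.36 ± 0.21. Outside the rule for named genes, and with values seen, Tut7, the other uridylyltransferase gene on the list, fell by 0.94 ± 0.31. After quantile normalization 3 were higher and 1 lower. The Tut4 call was lost there and without ABCG2 replicate 1. The Tut7 call was lost there too, and without mock replicate 1, 2 or 3 or ABCG2 replicate 2.

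Vessel and niche genes had 5 of 16 measured, with 2 higher and 2 lower. Vegfa (1.79 ± 0.37) and Notch1 (0.9996 ± 0.15) rose, and Notch2 (-1.64 ± 0.12) and Cxcr4 (-0.75 ± 0.24) fell; after quantile normalization the Notch2 call was kept and the other 3 were lost. The Cxcr4 call was also lost without mock replicate 2 or 3 or ABCG2 replicate 1. Kit, the receptor of stem cell factor, was at 0.37 and did not pass (limma, adjusted p = 0.0550); its probe sets went opposite ways, at -0.27 and 1.02. In the TALE and Hox list 2 of 14 genes were measured. Pknox1, a TALE relative of the Meis genes, fell by 1.03 ± 0.15, and Pbx2 was at 0.030 and did not pass. Of 9 other Sox genes, Sox12 rose by 1.67 ± 0.21 and Sox13 (0.029) did not pass, and the other 7 had no value.

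The remaining stem and progenitor regulators had 19 of 33 genes measured, 7 higher and 5 lower, or 6 and 2 after quantile normalization. The largest fall was that of Nfe2, an erythroid and megakaryocyte factor gene (-3.73 ± 0.18). The largest rises were those of Flt3, a progenitor receptor gene (2.84 ± 0.32), the Polycomb gene Bmi1 (2.18 ± 0.17) and Msi2, which encodes an RNA-binding protein of stem cells (2.14 ± 0.14). All named partner genes passed limma's test over all genes unless a value is stated not to.

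**Figure D4:**
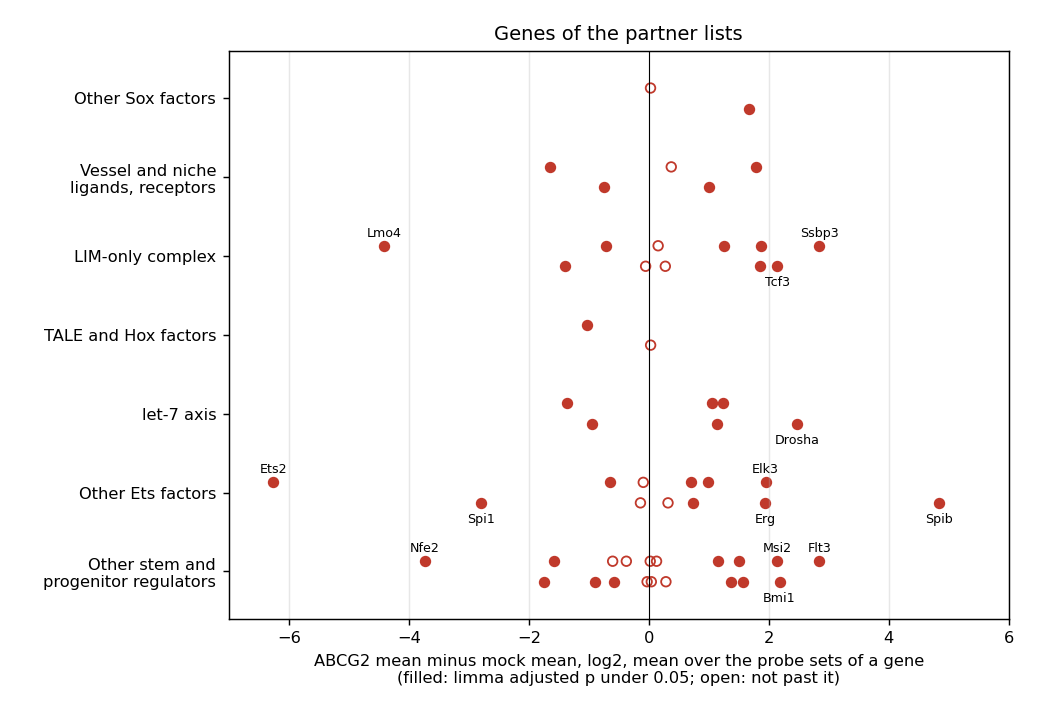
ABCG2 mean minus mock mean in log2 for each measured gene of the 7 partner lists, with filled points for genes past limma's threshold and open points for those not past it. Points lie on both sides of 0 in the LIM-only, Ets and let-7 lists, from Ets2 at -6.26 to Spib at 4.84.

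Markers of cell types moved beside these genes, against the 35.6% higher and 26.2% lower of all genes. Of the 6 megakaryocyte and platelet markers measured (of 11), 5 were lower in ABCG2 marrow and 0 higher (3 lower after quantile normalization), and the mean of the list was 0.38 to 0.93 on mock, -1.97 and -1.71 on ABCG2, 0.092 on GFP-negative and -0.12 on GFP-positive arrays. All 11 neutrophil markers measured (of 13) were lower (9 after quantile normalization). Their mean was -0.22 to 0.037 on mock arrays and -3.88 and -5.51 on ABCG2 arrays. Monocyte markers were lower for 8 of 9 measured (of 10). Stem and progenitor markers were higher for 2 of 3 measured (of 9), Flt3 and Slamf1 (the latter not after quantile normalization). Their list mean was -0.39 to -0.23 on mock and 1.27 and 1.13 on ABCG2 arrays. B lineage markers were higher for 2 of 5 measured (of 12), erythroid markers for 1 of 6 (of 13) with 2 lower, and T and NK markers for 2 of 4 (of 9) with 1 lower. After quantile normalization 1 erythroid and 0 T and NK markers were lower, and the calls of higher markers in these 3 lists were kept. Mast cell and basophil markers (2 of 6 measured) and endothelial and stromal markers (2 of 10) each had 1 higher and 1 lower, and the endothelial genes Cdh5, Pecam1 and Emcn had no value. The sorted arrays differed from mock in these lists too. On the GFP-positive array the list mean was 1.62 for erythroid (mock -0.90 to 0.36), 1.23 for B lineage (mock -1.16 to -0.083) and 0.96 for neutrophil markers (mock -0.22 to 0.037). On the GFP-negative array it was 0.59 for erythroid, 1.27 for T and NK (mock -1.93 to -0.27) and 1.28 for mast cell and basophil markers (mock -0.48 to -0.15). Monocyte markers were at -0.37 in GFP-negative and -0.25 in GFP-positive cells, against 0.92 to 1.06 on mock arrays. The part of cell makeup in the members' differences was not tested.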

How the data were processed

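RNA of bone marrow cells was measured on 7 Affymetrix Mouse430_2 arrays. The deposited log2 values are, per the file headers, normalized signals. Probe sets were kept there if raw signal lay between 3 and 120534 and all samples (100%) were called Present or Marginal. The submitters' processing notes name MAS5 without a version, and the scaling is not given in the sources used here. The base of the logarithm is not stated and was taken as 2. Each probe set had a median of 0 over the arrays. The sample files and the value table agreed (largest difference 0). Of 16309 probe sets, 54 controls were set apart. Platform annotation gave 1 symbol for 14229 of the other 16255, several for 483 and none for 1543. No pseudocount was needed.

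ABCG2 and mock were compared with limma 3.58.1 in R 4.3.3 (lmFit, eBayes, two-sided, Benjamini-Hochberg over all probe sets, threshold 0.05). A run on simulated arrays with independent noise required only that large planted differences kept their direction. It therefore does not give the error rate on these data. Partner genes were tested as means over probe sets, over 8378 genes. Since the labels do not number the mice, p-values cover only the spread among these arrays, which may be technical, and the number of arrays limits the precision. Named were all members and up to 4 partner genes per list that passed, by size. For each member the 2 genes with the most alike single probe set were also named. Ldb1, Tal1, Lmo1, Tut7, Erg, Slamf1 and the partner genes given as not passing were named after their values were seen. Members and lists were chosen with earlier results of these data known. Alternatives were other scalings, array weights, a replicate block, other moderation, all arrays, controls kept and leaving out arrays.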

Additional observations from a re-analysis of the deposited data

Results flagged for a closer look

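Manufacturer control probe sets, which were left out of the main comparisons, read higher on the sorted EZH2-Mt arrays than on any mock array. The median of 4 bioB probe sets was 0.99 on the GFP-negative and 2.47 on the GFP-positive array, against at most 0.0003 on mock arrays. For bioC, bioD and cre the medians were 0.91 and 2.14, against at most 0.060. For the 24 poly-A control probe sets (dap, lys, phe and thr) they were 1.79 and 3.50, against at most 0.0039. On the ABCG2 arrays the bioB median was -3.07 and -3.20 and the poly-A median -1.04 and -1.49.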

How the results depend on the processing

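Of the 11 member probe sets, 10 passed limma's test under all 12 alternatives that refit single probe sets of ABCG2 and mock. The exception, Fli1 with 1433512_at, passed under 6. Fitting all 7 arrays in 4 groups gave identical values, since lone arrays add nothing to the spread. With quantile normalization 4434 probe sets were called in place of 9234, and 2877 genes in place of 5179. Leaving out 1 array gave 7570 to 8442 probe sets, 4288 to 4810 genes, 10 to 11 member probe sets and 7 of 7 member genes. With quantile normalization, probe sets at 2-fold or more from mock numbered 2939 (GFP-negative, 1046 as deposited) and 3125 (GFP-positive, 1977 as deposited), and 1532 between the fractions (834 as deposited). Members among them numbered 5, 4 and 3, in place of 2, 2 and 1. Leaving out 1 mock array gave 1086 to 1120 and 1 to 3 members for GFP-negative, and 1981 to 2092 and 1 to 2 members for GFP-positive cells. The split of calls was 55.5% higher as deposited and 47.6% with quantile normalization. Replicate numbers are shared by mock and ABCG2 titles, and same-numbered arrays correlated in their deviations at 0.084 and -0.044. The deviations of the 2 ABCG2 arrays mirror each other, so these figures cannot exclude a pairing. The arrays were not taken as pairs in the main fit. With the replicate block 7726 probe sets and 10 members were called, and Fli1 with 1433512_at was not (-0.53, adjusted p = 0.0603). Because quantile normalization evens out the spread of the centred values, smaller ABCG2 and larger EZH2-Mt differences after it are partly built in. The cause of these changes was otherwise not tested.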
